A study of Mus musculus with 9 samples.

Results

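Epicardial and mesothelial marker genes were followed in cultured mouse cardiac fibroblasts in which the transcription factors Gata4 or Tbx20 had been targeted with Cas9. The set held 10 of the 38924 genes in the count table: Lrrn4, Upk3b, Upk1b, Msln, Gpm6a, Wt1, Krt19, Krt18, Bnc1 and Sema3d, each matched to its row by Ensembl identifier. The set was assembled because Lrrn4 was far lower in the Gata4 knockdown than in the control, so all values for the Gata4 knockdown against control are given as a description, and counts of calls in that contrast are printed for scale alone. Adult cardiac fibroblasts came from RosaCas9-EGFP mice of 8 to 10 weeks on a C57BL/6 background, so every group, the control included, carried Cas9 and EGFP. The cells were cultured for 3 days, sorted as CD45-CD31-CD90+, replated, and transfected 6 days later with scrambled guide RNAs (control, n = 3), guides to Gata4 (Gata4 KD, n = 3) or guides to Tbx20 (Tbx20 KD, n = 3). The study calls the libraries of a group biological replicates, and the labels name them a, b and c without tying them to animals or cultures. Each library averages edited and unedited cells.

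The epicardium is the mesothelial sheet that covers the heart. During development some of its cells leave the sheet by epithelial-to-mesenchymal transition, and many cardiac fibroblasts descend from them. Mesothelial cells keep an epithelial form with simple keratins, mesothelin and uroplakins, while the transcription factors Wt1, Tcf21 and Tbx18 mark the embryonic epicardium. Gata4 is also expressed in the proepicardium, from which the epicardium arises.

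The 4 guides are shown because they define the 2 knockdowns. Each lies in a coding exon, and its place in GRCm38 was found by matching it to the transcripts of its target. The Gata4 guides lie on chromosome 14, at chr14:63204711-63204730 on the minus strand and chr14:63240581-63240600 on the plus strand, and the Tbx20 guides on chromosome 9, at chr9:24770708-24770727 on the minus strand and chr9:24765732-24765751 on the plus strand. Lower case marks the bases of the guide and capitals the adjacent PAM that Cas9 needs.
Gata4 guide 1: cagagagtgtgtcaattgtgGGG
Gata4 guide 3: gcaggactgggctgtcgaagGGG
Tbx20 guide 2: caaattccatgaactgggcaCGG
Tbx20 guide 3: gagctgctcgccagtaaaggGGG

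Promoter sequence from RefSeq (GRCm38.p6) was at hand for 6 of the 10 members, in 7 windows that run from 250 bases before to 50 bases after a transcription start. Upk1b, Msln, Wt1 and Krt19 were not matched. The 250 bases before the start are printed 5′ to 3′ on the gene's own strand for the 3 members that lay furthest below the control in Gata4 KD (Lrrn4, Gpm6a, Upk3b) and for the member that lay furthest above it (Bnc1). They are chr2:132880863-132881112 (minus strand, Lrrn4), chr5:136038246-136038495 (plus strand, Upk3b), chr8:54954478-54954727 (plus strand, the second of 2 Gpm6a starts) and chr7:81992300-81992549 (minus strand, Bnc1). Capitals mark a GATA motif, searched on both strands as the word GATA with A or T before it and A or G after it (the first such word is AGATAA).
Lrrn4: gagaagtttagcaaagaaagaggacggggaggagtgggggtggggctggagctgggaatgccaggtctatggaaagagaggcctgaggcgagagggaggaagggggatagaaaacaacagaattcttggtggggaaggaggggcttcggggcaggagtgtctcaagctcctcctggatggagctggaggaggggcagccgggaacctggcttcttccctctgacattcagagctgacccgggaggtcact
Upk3b: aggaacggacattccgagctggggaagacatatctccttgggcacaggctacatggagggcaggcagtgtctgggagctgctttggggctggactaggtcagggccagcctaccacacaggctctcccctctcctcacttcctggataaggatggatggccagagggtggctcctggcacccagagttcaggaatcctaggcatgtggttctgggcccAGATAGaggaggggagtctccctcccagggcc
Gpm6a: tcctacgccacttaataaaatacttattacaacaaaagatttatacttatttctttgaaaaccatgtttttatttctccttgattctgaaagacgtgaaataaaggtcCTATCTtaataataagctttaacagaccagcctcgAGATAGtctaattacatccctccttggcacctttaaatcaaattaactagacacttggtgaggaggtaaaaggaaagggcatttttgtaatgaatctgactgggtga
Bnc1: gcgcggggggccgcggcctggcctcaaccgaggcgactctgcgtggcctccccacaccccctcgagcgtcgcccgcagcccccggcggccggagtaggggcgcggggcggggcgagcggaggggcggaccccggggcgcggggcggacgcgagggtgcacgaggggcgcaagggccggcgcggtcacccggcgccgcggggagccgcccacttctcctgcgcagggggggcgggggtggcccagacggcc

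The Upk3b window held AGATAG with its first base at -32 from the start. The second Gpm6a window held AGATAG at -142 on the opposite strand and at -107 on the gene's strand. None of these letters occurred in the Lrrn4, Bnc1, Krt18, Sema3d or first Gpm6a window. A GATA motif was therefore present in 2 of 7 member windows, against 29.8% of all 32851 promoter windows, and such a match is a description of the sequence and not a binding site. The T-box motif GGTGTGA, searched on both strands, was in 0 of the 7 windows and in 3.98% of all windows. The Bnc1 window was the most GC-rich of the 7, at 83.3% G or C with 50 CG pairs, against a median over all windows of 52.7% and 7 CG pairs. Lrrn4 had 58% and 7 CG pairs, Upk3b 58.7% and 2, and the second Gpm6a window 36% and 6.

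Each library held between 31214828 and 41950397 counts, with a median of 36270725. Levels are given as CPM, the counts scaled to library size, with sizes corrected by TMM, whose factors ran from 0.973 to 1.02. Gata4 was 155 to 167 CPM in the control, 46.7 to 65.5 CPM in Gata4 KD and 178 to 198 CPM in Tbx20 KD. Tbx20 was 720 to 1275 CPM in the control, 513 to 908 CPM in Gata4 KD and 320 to 428 CPM in Tbx20 KD. Each target was thus below every control library in its own knockdown. The libraries carried a fibroblast transcriptome, with a summed level of 9 fibroblast markers of 14470 to 16420 CPM in the control, 10560 to 15130 CPM in Gata4 KD and 14010 to 17120 CPM in Tbx20 KD, and Thy1, which encodes the sorted CD90, between 74.9 and 110.7 CPM.

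Against that background the members were minor transcripts. Their summed level was 96.4 to 127.7 CPM in the control, 72.3 to 81.0 CPM in Gata4 KD and 105 to 122 CPM in Tbx20 KD, and 4 of the 10 exceeded 1 CPM in every library. Sema3d and Lrrn4 made up most of the control sum, with means of 75.05 and 24.82 CPM. In Gata4 KD their means were 58.82 and 2.385 CPM, while the means of Krt19, Bnc1 and Wt1 were above those of the control. Per kilobase of the longest transcript, Sema3d was the most abundant member in the control at 11.9 ± 3.64 CPM per kb (SD, n = 3), followed by Lrrn4 at 6.68 ± 2.28 and Krt19 at 4.25 ± 0.797, and the ranges of these neighbours overlapped. Upk1b came next at 1.75 ± 0.603 CPM per kb, below every Krt19 value. Upk3b (0.687 ± 0.366) and Krt18 (0.67 ± 0.186) lay below Upk1b without overlap and overlapped each other. Gpm6a (0.259 ± 0.101), Wt1 (0.242 ± 0.0382) and Bnc1 (0.196 ± 0.0339) overlapped and lay below Krt18. Msln was the lowest, at 0.0774 ± 0.0652 CPM per kb, with no overlap with Bnc1. Wt1 would be 0.121 CPM per kb if the joined length of all its exons were used, since its transcripts differ in length.

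**Figure D1:**
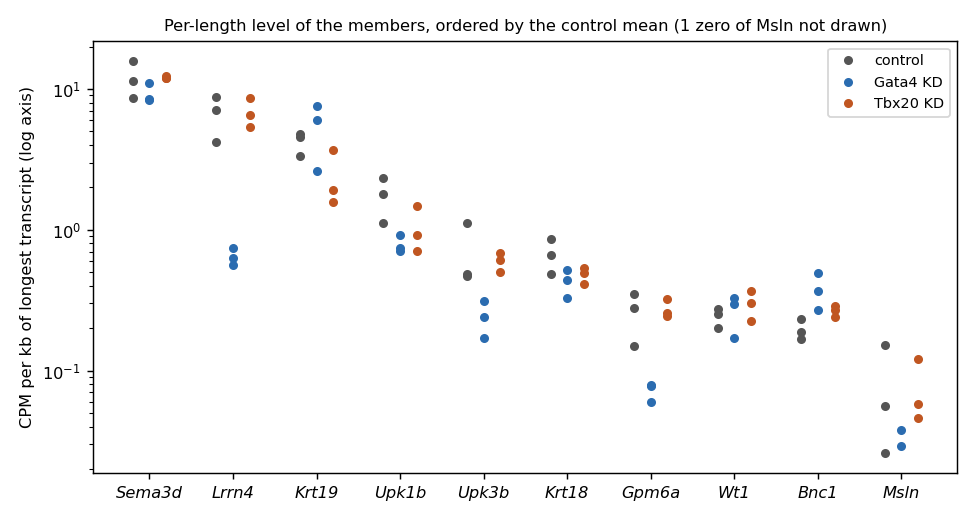
Level of each member per kilobase of its longest transcript (log axis, CPM per kb) in the 9 libraries, with 1 point for each library, coloured by group and ordered by the control mean. Sema3d, Lrrn4 and Krt19 lead in the control, and the 3 Gata4 KD points of Lrrn4 lie apart from its other 6.

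The label of the set was only partly borne out by its most specific markers. Mesothelin (Msln), a glycosylphosphatidylinositol-anchored surface protein of mesothelial cells, had 12, 2 and 4 counts in control a, b and c, 2, 3 and 0 in Gata4 KD, and 11, 4 and 4 in Tbx20 KD. The zero in Gata4 KD c allows a level of up to 0.083 CPM, at 3 counts (counting error only). All Gata4 KD libraries were thus at or below 3 counts, Msln did not pass the filter on low counts in any comparison, and no fold is given. Some genes of the wider list were also near 0. Calb2, which encodes calretinin, had 0 or 1 count in each library, as did Rspo1. Krt8, the type II keratin that pairs with Krt18, had 0 to 5 counts. These genes were named after their values were seen, and 15 of the 26 matched genes of that list exceeded 1 CPM in every library. Tcf21 and Tbx18, for example, were at 168 to 200 CPM and 109 to 125 CPM in the control. Of Krt8, 22% of its 75-base windows also match its pseudogene Krt8-ps, so its counts are uncertain. General epithelial markers were low as well: the summed CPM of Epcam, Krt5, Krt14 and Cdh1, the last of which is also on the wider list described further on, was 0.224 to 0.626 in the control, 0.194 to 0.221 in Gata4 KD and 0.166 to 0.322 in Tbx20 KD. By contrast Pdpn, which encodes the mesothelial surface protein podoplanin and is also made by fibroblasts, was 380 to 412 CPM in the control. In bulk RNA, fewer cells of a type and less RNA per cell cannot be told apart.

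Lrrn4, on chromosome 2 (GRCm38, 132868305 to 132880891, minus strand), encodes a membrane protein with leucine-rich repeats that is used as a mesothelial marker. Its level was 32.45, 15.7 and 26.32 CPM in control a, b and c, 2.74, 2.09 and 2.32 CPM in Gata4 KD a, b and c, and 31.9, 24.4 and 19.8 CPM in Tbx20 KD a, b and c. Every Gata4 KD library lay far below the other 6, whereas the control and Tbx20 KD libraries were intermingled. The counts behind these levels were 561 to 1193 in the control, 76 to 87 in Gata4 KD and 780 to 1348 in Tbx20 KD.

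The uroplakins Upk3b and Upk1b belong to families of membrane proteins known from the plaques of the urothelium, and both mark mesothelial cells. Upk3b (chromosome 5, 136038496 to 136046487, plus strand) was at 3.92, 1.71 and 1.66 CPM in control a, b and c, 0.850, 0.605 and 1.11 CPM in Gata4 KD and 2.15, 2.41 and 1.76 CPM in Tbx20 KD. All Gata4 KD libraries were below all others, and control a stood well above control b and c. Upk1b (chromosome 16, 38773184 to 38800328, minus strand), a tetraspanin, was at 4.41, 2.13 and 3.40 CPM in control a, b and c, 1.73, 1.40 and 1.33 CPM in Gata4 KD and 2.79, 1.35 and 1.74 CPM in Tbx20 KD. Here the Gata4 KD libraries were below every control library but overlapped Tbx20 KD.

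Gpm6a (chromosome 8, 54954843 to 55060871, plus strand), a membrane glycoprotein best known from neurons and also found in mesothelium, was at 0.898, 1.12 and 0.482 CPM in control a, b and c. It was at 0.252, 0.193 and 0.249 CPM in Gata4 KD and at 0.780, 1.03 and 0.818 CPM in Tbx20 KD. The Gata4 KD libraries were again the lowest 3 of the 9. They held 7 to 9 counts each, against 16 to 40 in the control and 33 in each Tbx20 KD library, so Gpm6a reached the filter level of 0.276 CPM in 0 of the 3 Gata4 KD libraries and was fitted through the other group alone.

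The other members did not share this order. Wt1 (chromosome 2, 105126529 to 105173616, plus strand), the zinc finger factor of the embryonic epicardium, was at 0.843, 0.616 and 0.783 CPM in the control, 0.913, 1.02 and 0.525 CPM in Gata4 KD and 1.14, 0.940 and 0.694 CPM in Tbx20 KD, with all groups overlapping. Bnc1 (chromosome 7, 81966672 to 81992292, minus strand) encodes basonuclin 1, a zinc finger protein of epithelia and mesothelium, and its level was 1.09, 0.867 and 0.783 CPM in the control, 1.70, 2.28 and 1.25 CPM in Gata4 KD and 1.11, 1.25 and 1.34 CPM in Tbx20 KD. Every knockdown library was above every control library for Bnc1, the closest pair being control a at 1.09 CPM and Tbx20 KD a at 1.11 CPM.

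The keratins are intermediate filament proteins of simple epithelia. Krt19 (chromosome 11, 100140810 to 100148665, minus strand) was at 7.24, 5.26 and 7.59 CPM in the control, 9.54, 11.9 and 4.15 CPM in Gata4 KD and 5.79, 2.48 and 3.00 CPM in Tbx20 KD. Gata4 KD c lay below all controls while Gata4 KD a and b lay above them. Krt18 (chromosome 15, 102028180 to 102032027, plus strand) was at 0.952, 0.700 and 1.24 CPM in the control, 0.630, 0.743 and 0.470 CPM in Gata4 KD and 0.709, 0.595 and 0.768 CPM in Tbx20 KD, and its groups overlapped. Sema3d (chromosome 5, 12383385 to 12588948, plus strand), a secreted semaphorin made by epicardial cells, was at 71.6, 99.5 and 54.0 CPM in the control, 53.8, 53.0 and 69.7 CPM in Gata4 KD and 75.1, 77.3 and 74.8 CPM in Tbx20 KD. Its Tbx20 KD libraries were close together and all above Gata4 KD, while the controls spanned both.

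**Figure D2:**
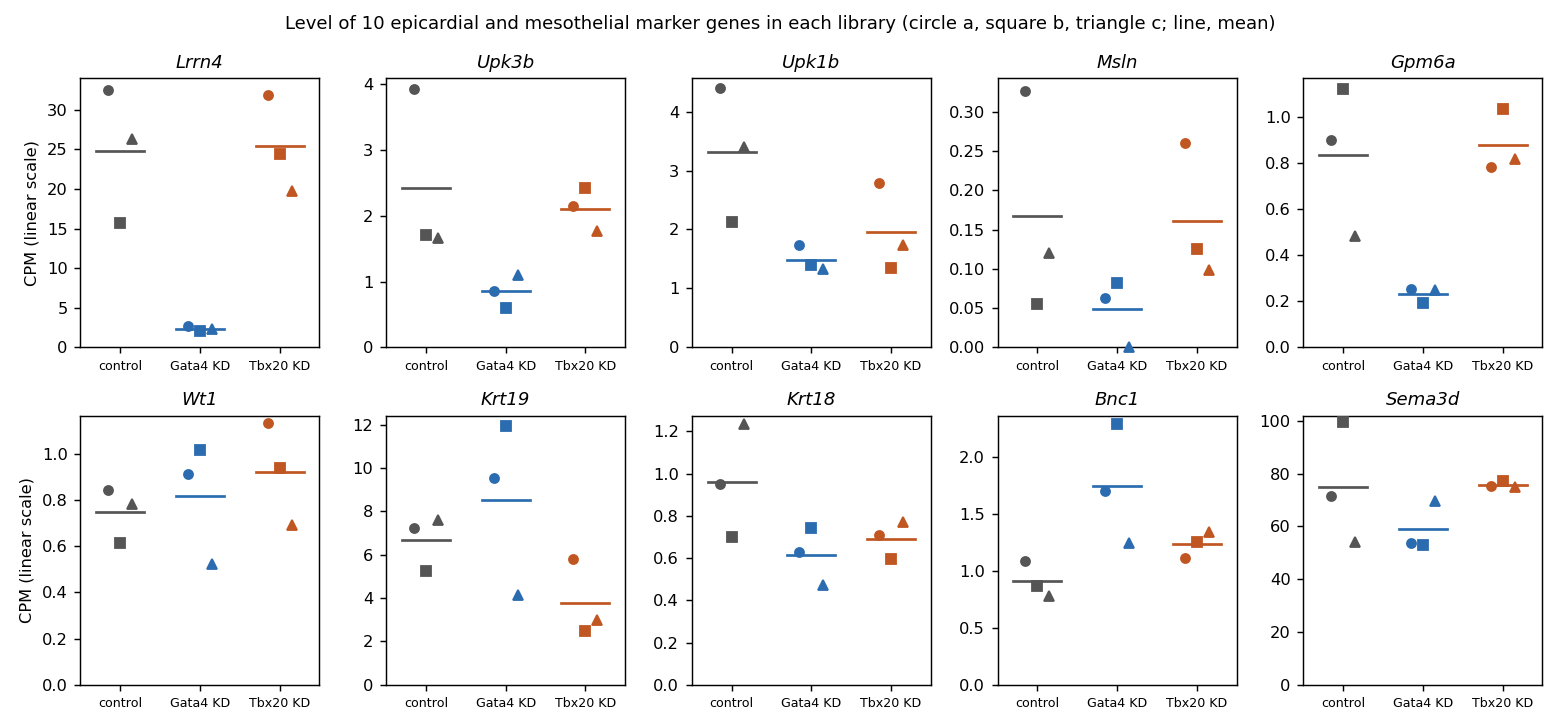
CPM of each member (linear axes from 0, one scale for each panel) in control, Gata4 KD and Tbx20 KD, with libraries a, b and c as circles, squares and triangles and the group mean as a line. Gata4 KD points are the lowest for Lrrn4, Upk3b and Gpm6a, and the highest mean of Bnc1 and Krt19 is that of Gata4 KD.

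Libraries within a group did not rank alike. Control a was the highest of its group for 6 of the 10 members and control b the lowest for 6, while Gata4 KD c was the lowest of its group for 6 and Gata4 KD b the highest for 5. The coefficient of variation of Lrrn4 was 34.1% in the control, 13.8% in Gata4 KD and 24.0% in Tbx20 KD, and that of Upk3b was 53.2%, 29.3% and 15.6%. Over 14782 genes the median coefficient of variation was 11.5%, 8.73% and 6.98% in the same order.

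The first comparison, Gata4 KD against control, was the one that chose the set. Lrrn4 was 10.4-fold lower in Gata4 KD, with a log2 fold change of -3.38 (SE 0.273). Gpm6a was 3.59-fold lower (-1.84, SE 0.397), Upk3b 2.84-fold lower (-1.51, SE 0.401) and Upk1b 2.23-fold lower (-1.16, SE 0.283). Without control a, the log2 fold change of Upk3b was -0.98. In the other direction, Bnc1 was 1.9-fold higher (0.93, SE 0.285). The log2 fold changes of Krt18 (-0.64, SE 0.314), Sema3d (-0.35, SE 0.209), Wt1 (0.13, SE 0.317) and Krt19 (0.35, SE 0.339) were of groups that overlapped.

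For scale, 0.38% of the 14468 genes fitted had an adjusted p under 0.05 by the quasi-likelihood test of edgeR, and 1 of the 9 fitted members did, namely Lrrn4, which was chosen for that difference. Groups did not overlap for 13.8% of all genes and for 5 of the 9 members. Nothing is read from these counts, since the contrast chose the set. The median log2 fold change of the 9 was -0.64, with 3 higher and 6 lower, and that of all genes was -0.02. Upk3b was among the genes the study itself picked from these libraries to illustrate the Gata4 knockdown, and Upk1b among those for the Tbx20 knockdown, so neither is independent evidence of its direction.

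Whether the members also moved when Tbx20 was targeted is a contrast without the Gata4 KD libraries in which the level of Lrrn4 chose the set. It shares the control libraries with the first, and the members were listed with its results known. The level of Lrrn4 was 24.8 ± 8.48 CPM (SD, n = 3) in the control and 25.4 ± 6.09 CPM in Tbx20 KD, a log2 fold change of 0.05 (SE 0.257), with a 95% interval from -0.542 to 0.634. The interval leaves out a fall of the size seen in Gata4 KD. Intervals were wider for Gpm6a (0.07, from -0.684 to 0.825) and Upk3b (-0.20, from -0.972 to 0.577). Krt19 (-0.81, SE 0.3) and Upk1b (-0.73, SE 0.326) had the lowest values, and Bnc1 (0.44, SE 0.224) and Wt1 (0.32, SE 0.274) the highest.

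None of the 9 fitted members passed the edgeR test in Tbx20 KD against control (0 of 9, each with an adjusted p of 1), against a background of 0.00687%, that is 1 gene of 14547. At an unadjusted p under 0.05 the count was 1 of 9 (Krt19), against 392 of all genes, and DESeq2, the edgeR exact test and limma-voom also called 0 members. The targeted gene, Tbx20, was not called either: its log2 fold change was -1.35 (SE 0.207), 2.54-fold lower in Tbx20 KD, with an adjusted p of 0.748, so a count of 0 in this contrast does not show that the members were stable. The groups did not overlap for 1 member, Bnc1, against 6.74% of all genes. The median log2 fold change of the members was 0.02, with 5 higher and 4 lower.

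The 2 knockdowns were next compared with each other, without the control libraries, which asks whether a difference in the members separates Gata4 from Tbx20. Gpm6a had a log2 fold change of -1.90 (SE 0.261), with an adjusted p of 0.0225 by the edgeR test. Gpm6a passed the filter only through Tbx20 KD, the group where it was high, so its value is given as a description. With no filter, a setting that also raised the number of all genes called, its adjusted p by the edgeR test was 0.0127. The call rested on Gata4 KD libraries of 7 to 9 counts, and it was lost without Gata4 KD a (adjusted p = 0.119), Gata4 KD b (0.088), Tbx20 KD a (0.0512), Tbx20 KD b (0.117) or Tbx20 KD c (0.119), and with the replicate block (0.0749). DESeq2 gave no adjusted p for Gpm6a. Lrrn4 had a log2 fold change of -3.42 (SE 0.204), given as a description because the same Gata4 KD libraries chose it.

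For Upk3b the log2 difference was -1.30 (SE 0.252) with an adjusted p of 0.0586, and for Sema3d it was -0.36 (SE 0.104) with an adjusted p of 0.146, both with Gata4 KD below Tbx20 KD in every library and neither past the threshold. Krt19 was at 1.17 (SE 0.437, adjusted p = 0.235), with overlapping groups. All 3 passed the threshold when Gata4 KD c was left out, where the adjusted p was 0.0222 for Upk3b, 0.00351 for Sema3d and 0.0382 for Krt19. That omission also raised the calls over all genes from 208 to 801. With other single libraries left out, the adjusted p by the edgeR test rose as far as 0.231, 0.411 and 0.565 for the same genes. Upk1b (-0.41), Wt1 (-0.18), Krt18 (-0.18) and Bnc1 (0.50) had adjusted p-values of 0.509, 0.815, 0.769 and 0.363. The Gata4 KD and Tbx20 KD ranges of Upk1b, at 1.33 to 1.73 and 1.35 to 2.79 CPM, overlapped.

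For scale, 1.44% of 14477 genes were called in this comparison, and Lrrn4 and Gpm6a, 2 of 9 members, were among them. Nothing is read from that count, since Lrrn4 was chosen in these Gata4 KD libraries and Gpm6a was fitted through the group where it was high. The ranges did not overlap for 4 of 9 (Lrrn4, Upk3b, Gpm6a and Sema3d), against 23% of all genes. Msln, which was not fitted, had 0 to 3 counts in Gata4 KD and 4 to 11 in Tbx20 KD. Among all genes called, 118 were higher and 90 lower in Gata4 KD, and with library sizes alone in place of TMM 90 were higher and 112 lower. The median log2 fold change was -0.36 over the members and -0.01 over all genes.

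**Figure D3:**
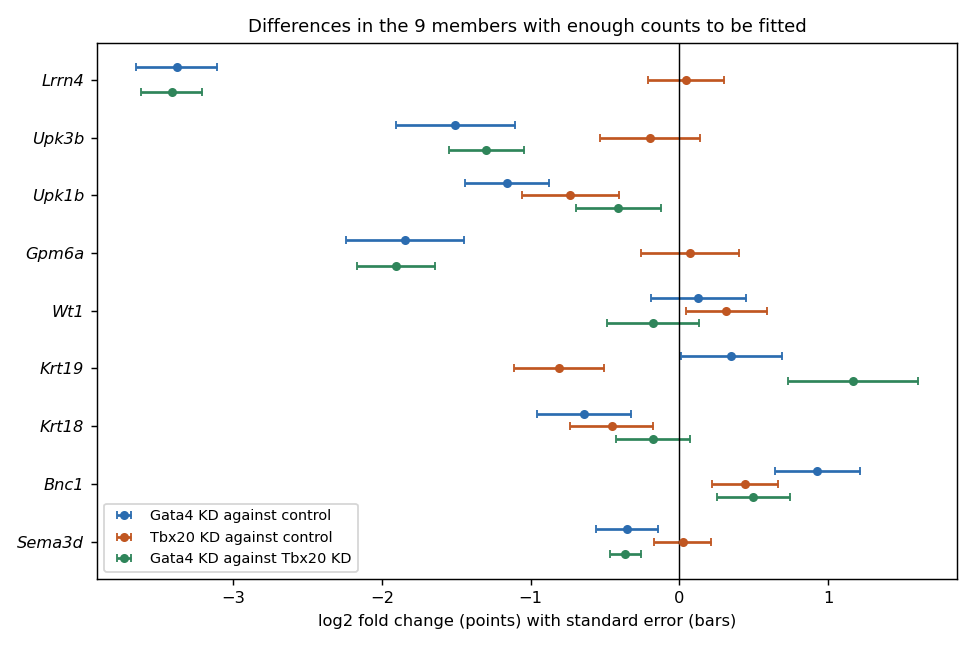
Log2 fold change (x axis) of the 9 members that could be fitted, with bars of 1 standard error, in Gata4 KD against control, Tbx20 KD against control and Gata4 KD against Tbx20 KD. Lrrn4, Upk3b and Gpm6a lie left of 0 in both comparisons of Gata4 KD and near 0 in Tbx20 KD against control, where the log2 fold changes are 0.05, -0.20 and 0.07.

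A wider list of epicardial and mesothelial genes gave the same comparisons for genes outside the set. It had 27 genes, of which Muc16 was not matched to a row, 26 were matched, 18 had enough counts to be fitted and 15 exceeded 1 CPM in every library. In Gata4 KD against control, where 0.38% of all genes were called, 2 of the 18 had an adjusted p under 0.05, both lower: Itga4, the integrin alpha4 subunit that anchors epicardial cells (-0.85, SE 0.127), and Ildr2, an immunoglobulin-like domain receptor (-0.65, SE 0.103). Itga4 was at 88.4, 107 and 76.3 CPM in control a, b and c, 46.9, 53.4 and 51.0 CPM in Gata4 KD and 89.1, 79.0 and 83.7 CPM in Tbx20 KD. Ildr2 was at 32.3, 34.2 and 32.9 CPM in the control, 20.1, 23.9 and 19.2 CPM in Gata4 KD and 32.5, 26.4 and 28.0 CPM in Tbx20 KD. The Gata4 KD libraries were below all others for both genes. With the replicate block the adjusted p was 0.179 for Itga4 and 0.213 for Ildr2, and without Gata4 KD a it was 0.279 and 0.408. It was also above 0.05 for both genes without Gata4 KD b, Gata4 KD c or control a, and for Ildr2 without control c (0.126), with limma-voom (0.0501) and with the CPM filter (0.0511). Itga4 and Aldh1a1 had been picked by the study from these libraries and are not independent of them.

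Ranges in Gata4 KD and control did not overlap for 11 of the 18 wider genes, 9 lower and 2 higher, against 13.8% of all genes. Lower in every Gata4 KD library were, among others, Scx (-1.09, SE 0.262), a basic helix-loop-helix factor of tendon and epicardium-derived cells, Ezr (-0.85, SE 0.227), which encodes ezrin and links microvilli to actin, and Tcf21 (-0.61, SE 0.187), a factor of epicardium-derived fibroblasts. Tbx18 (0.31, SE 0.0827) and Aldh1a2 (0.75, SE 0.216), which makes retinoic acid in the epicardium, were higher in every Gata4 KD library. The median log2 fold change of the 18 was -0.31, with 5 higher and 13 lower. As for the members, these values come from the contrast that chose the set.

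In Tbx20 KD against control, 0 of the 18 wider genes passed the edgeR test, each with an adjusted p of 1, in the contrast where Tbx20 itself was not called. At an unadjusted p under 0.05 by the edgeR test there were 2, against 392 of all 14547 genes. DESeq2, the exact test and limma-voom also called 0. The 3 with the smallest p-values were Tbx18 (0.40, SE 0.0857), Tcf21 (0.30, SE 0.125) and Scx (-0.52, SE 0.267). Tbx18 was at 115, 125 and 109 CPM in the control, 142, 151 and 139 CPM in Gata4 KD and 162, 152 and 143 CPM in Tbx20 KD, so both knockdowns lay above every control library. Ranges did not overlap for 3 of the 18, 1 higher and 2 lower, against 6.74% of all genes, and the median was 0.01, with 10 higher and 8 lower.

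Between the knockdowns, 2 of the 18 genes passed the test, against 1.44% of all genes, both with the lower level in Gata4 KD. Both are genes that the study had picked from these libraries. Itga4 stood at -0.74 on the log2 scale (SE 0.0682) with an adjusted p of 0.00545, and Aldh1a1 at -0.65 (SE 0.093) with an adjusted p of 0.0242. Aldh1a1, a retinaldehyde dehydrogenase, was at 272, 269 and 250.1 CPM in the control, 166, 160.4 and 201 CPM in Gata4 KD and 261, 292 and 278 CPM in Tbx20 KD, with Gata4 KD below all other libraries. Its call was lost without Gata4 KD a (adjusted p = 0.133), Gata4 KD b (0.0821), Tbx20 KD b (0.133) or Tbx20 KD c (0.132), while Itga4 passed without each library in turn (0.0037 to 0.0491). Ranges did not overlap for 7 of the 18, all lower in Gata4 KD, against 23% of all genes, and the median was -0.31, with 4 higher and 14 lower.

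**Figure D4:**
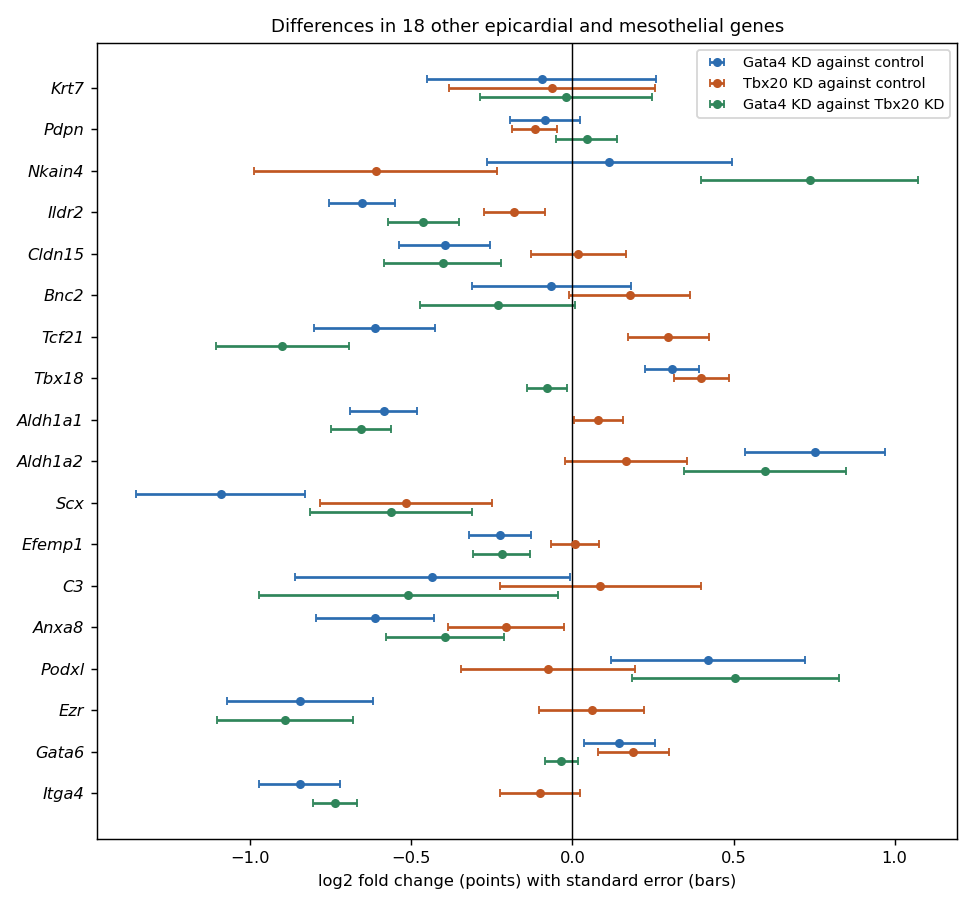
Log2 fold change (x axis) of 18 further epicardial and mesothelial genes, with bars of 1 standard error, in the 3 comparisons. Itga4 lies at -0.85 in Gata4 KD against control, -0.10 in Tbx20 KD against control and -0.74 between the knockdowns, and Aldh1a2 lies right of 0 in all 3.

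Markers of other cells that a sort could leave behind were examined beside these differences. The sum of 6 endothelial genes was 35.1 to 55.5 CPM in the control, 37.1 to 54.8 CPM in Gata4 KD and 40.8 to 52.4 CPM in Tbx20 KD, with 5 of 6 above 1 CPM in every library and Tek the most abundant. Within it Kdr, a VEGF receptor, was at 2.29 to 3.47 CPM in the control, 5.06 to 6.19 CPM in Gata4 KD and 2.68 to 3.22 CPM in Tbx20 KD, above all other libraries in Gata4 KD. The sum of 6 leukocyte genes was 37.5 to 45.0 CPM in the control, 24.5 to 40.8 CPM in Gata4 KD and 37.0 to 52.2 CPM in Tbx20 KD, with its lowest value in Gata4 KD b. Within it Csf1r, the receptor of macrophage colony-stimulating factor, was at 8.37 to 11.02 CPM in the control, 5.28 to 7.43 CPM in Gata4 KD and 7.58 to 10.25 CPM in Tbx20 KD, below all other libraries in Gata4 KD. Kdr and Csf1r were named after their values were seen, and the other genes of their sums were mixed. By group mean, Pecam1, Cdh5 and Emcn were also higher in Gata4 KD than in the control. Tek (22.08 against 27.96 CPM) and Tie1 (0.3035 against 0.4284 CPM) were lower. Cd68, Adgre1 and Lyz2 were lower in Gata4 KD, like Csf1r, while Cd14 (3.064 against 2.385 CPM) and Ptprc (2.37 against 2.311 CPM) were higher. The 6 cardiomyocyte genes together stayed at or below 0.68 CPM, and Nppa was at 0 in every library. The fibroblast sum was lowest in Gata4 KD b, at 10560 CPM, and the part of any of these cells in the differences of the members was not tested.

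Lrrn4 was compared with genes of at least 1 CPM on average that had a symbol other than a predicted gene, clone or pseudogene name. The 5 whose log2 CPM followed Lrrn4 most closely over the 9 libraries were Ces2g (Pearson r = 0.986, Spearman rho = 0.95), Tnnt2 (0.984 and 0.9), Chn2 (0.982 and 0.883), Dusp3 (0.975 and 0.8) and Myrf (0.969 and 0.917). These were the highest of 11677 genes compared and are given as a description over 9 libraries in 3 groups. For each of them the 3 Gata4 KD libraries lay below the other 6. Ces2g encodes a carboxylesterase, Tnnt2 cardiac troponin T, Chn2 beta-chimaerin, Dusp3 a dual-specificity phosphatase and Myrf a membrane-bound transcription factor. The size of the gap differed: in Gata4 KD, Lrrn4 was at 8.43% to 11% of its control mean, Tnnt2 at 29.8% to 34.6%, Ces2g at 56.9% to 63.4%, Chn2 at 58.4% to 64.2%, Myrf at 64.7% to 71.3% and Dusp3 at 89.3% to 90.8%. Tnnt2 was one of the genes the study picked for the Gata4 knockdown.

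Among the members, Pearson r with Lrrn4 over the 9 libraries was highest for Upk3b (0.887) and Gpm6a (0.87), followed by Msln (0.72), Upk1b (0.659), Krt18 (0.538) and Sema3d (0.476). Wt1 was at 0.176, Krt19 at -0.405 and Bnc1 at -0.713. Each r includes the gap of Lrrn4 between Gata4 KD and the other libraries, the gap that chose the set. The values are thus a description and not a test of whether the members follow Lrrn4. By Spearman rho the order differed, with Msln at 0.867, Upk3b at 0.85, Upk1b at 0.767, Gpm6a at 0.567, Krt18 at 0.5, Sema3d at 0.433, Wt1 at 0.217, Krt19 at -0.183 and Bnc1 at -0.617. Msln had between 0 and 12 counts in each library, so its place in either order is uncertain. Among the control libraries alone, control b was the lowest for Lrrn4 and also for Upk1b, Msln, Wt1, Krt19 and Krt18. It was the highest for Gpm6a and Sema3d, and lay between control a and c for Upk3b and Bnc1.

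**Figure D5:**
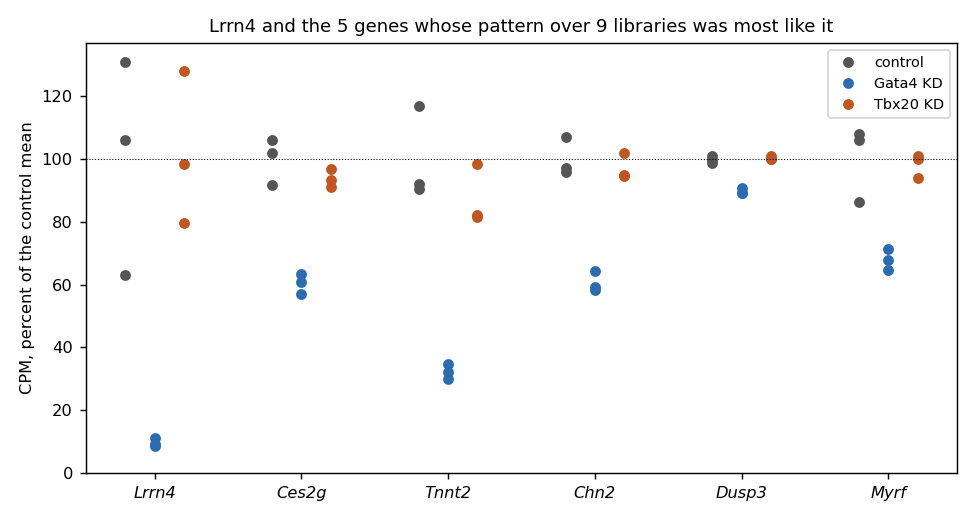
CPM of Lrrn4 and the 5 genes most like it, as a percent of each gene's control mean (y axis from 0), with 1 point for each library. The 3 Gata4 KD points are below the other 6 for each gene, from about 8.43% for Lrrn4 to 90.8% for Dusp3.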

How the data were processed

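Total RNA was isolated, and 9 poly(A)-selected mRNA libraries were sequenced as 75-base single-end reads. Per the study's methods and the labels, the authors estimated expression with RSEM, counting the reverse strand, and deposited a table of expected counts per Ensembl gene, with no normalization. The aligner is Bowtie in the labels and Bowtie2 in the methods. The labels name mm9 and the methods GRCm38. The deposited expected counts need no coordinates, and those printed here are of GRCm38.

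Expected counts were rounded to whole numbers. Symbols came from gene tables for 96.6% of identifiers. In each comparison, the 6 libraries of its 2 groups were filtered with filterByExpr, scaled with TMM and tested two-sided with the quasi-likelihood test of edgeR 4.0.16 (R 4.3.3), with Benjamini-Hochberg adjustment over all genes tested and a threshold of 0.05. DESeq2 1.42.0 and limma 3.58.1 were used in alternatives. Standard errors are the log2 fold change divided by the root of F, and intervals use the degrees of freedom of the fit. The scripts were tested on simulated data.

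The named genes were the 10 members, both targets, every wider-list gene past the threshold in a comparison or else the 3 with the smallest p, and the 5 genes most like Lrrn4 (log2 of CPM + 0.25). Aldh1a2, Ezr, Pdpn, Kdr, Csf1r, Calb2, Rspo1 and Krt8, and the wider genes given for non-overlap, were named after their values were seen. The members and lists were chosen with earlier results of these data known. The study calls the libraries biological replicates. The labels name no animals, cultures or batches, and p-values measure the spread between these libraries, which may be technical in part. Libraries of 1 group, taken in pairs, all differed by more than sampling noise. No column of per-sample values was left unused.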

Additional observations from a re-analysis of the deposited data

Results flagged for a closer look

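Among the members and the wider list, and leaving Lrrn4 as a description, 3 genes had an adjusted p under 0.05 in the direct test between Gata4 KD and Tbx20 KD. The log2 fold change of Gata4 KD against Tbx20 KD was -1.90 for Gpm6a, -0.65 for Aldh1a1 and -0.74 for Itga4. For each gene all 3 Gata4 KD libraries were below all 3 Tbx20 KD libraries. Itga4 and Aldh1a1 had been picked by the study from these same libraries, so neither is independent of them. Gpm6a had 7 to 9 counts in each Gata4 KD library and passed the filter only through Tbx20 KD, so its value is a description. Its call and that of Aldh1a1 were lost when single libraries were left out.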

How the results depend on the processing

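In Gata4 KD against control, 1 member was called by edgeR, and the count was 4 with DESeq2, 4 with the exact test, 2 with all 9 libraries in one fit and 1 to 2 with 1 library left out (2 without control b). The wider list gave 2, and 5 with DESeq2, 1 with the CPM filter, 6 with the exact test, 1 with limma-voom, 0 with the replicate block and 0 to 2 with 1 library left out. All genes gave 55, and 273 with DESeq2, 121 with no filter, 250 with the exact test, 148 with all 9 libraries, 5 with the replicate block and 6 to 189 with 1 library left out (189 without control b). In Tbx20 KD against control, all genes gave 1, and 10 with DESeq2, 2 with no filter, 8 with the exact test, 2 with the replicate block and 1 to 5 with 1 library left out. In Gata4 KD against Tbx20 KD, members gave 2, and 1 with the CPM filter, which drops Gpm6a, 4 with the exact test, 1 with the replicate block and 1 to 5 with 1 library left out (5 without Gata4 KD c). The wider list gave 2, and 5 with DESeq2, 4 with no filter, 5 with the exact test and 1 to 4 with 1 library left out (4 without Gata4 KD c). All genes gave 208, and 761 with DESeq2, 324 with no filter, 729 with the exact test, 101 with the replicate block and 22 to 801 with 1 library left out (801 without Gata4 KD c, 22 without Gata4 KD a). Apart from the filters, which change the genes tested, and the libraries left out, the cause was not tested.

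With 1 library left out, the log2 fold change in Tbx20 KD against control changed sign for Lrrn4 (-0.19 to 0.28), Upk3b (-0.40 to 0.33), Gpm6a (-0.19 to 0.35), Sema3d (-0.16 to 0.29) and Itga4 (-0.21 to 0.047), and between the knockdowns for Wt1 (-0.37 to 0.062), none of which was called. Upk3b between the knockdowns was called with DESeq2 (adjusted p = 0.00214), no filter (0.0314) and the exact test (0.000284), in a range over these alternatives up to 0.142. Sema3d was called there with DESeq2 (0.0313) and the exact test (0.0389), in a range up to 0.482. Other scalings moved the median of all genes by at most 0.03 on the log2 scale.

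The letters a, b and c showed no steady pairing: deviations of same-lettered libraries correlated at 0.11, -0.0632 and -0.206 for Gata4 KD and control, at -0.027, 0.249 and -0.0444 for Tbx20 KD and control, and at 0.15, -0.257 and 0.319 between the knockdowns. With 3 libraries in each group, these values do not settle whether same-lettered libraries shared an animal or culture. With so few counts for Msln and for Gpm6a in Gata4 KD, small differences in them were not detectable at this depth.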
